A study of Bos taurus with 2 samples.

Results

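The initiation factors of translation were compared between the longissimus thoracis (LT) muscle of fetuses from dams on low and high nutrition. Members were the genes whose bovine symbol begins with EIF1 to EIF6, without the eIF2 alpha kinases (EIF2AK) and the eIF4E-binding proteins (EIF4EBP), and a probe was assigned to a member through its accession. The bovine gene table held 46 such symbols. Of these, 39 had at least 1 matched probe (101 of the 43652 probes of the array), and 38 had a measured value, out of 19554 genes with a value in all. *EIF1AY* had 1 probe, which was not well above background on either array. No probe accession matched *EIF2B5*, *EIF3F*, *EIF4E1B*, *EIF4ENIF1*, *EIF4G1*, *EIF4G3* or *EIF5B*, so these 7 genes were not analysed here.

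The low-nutrition (LN) sample was the total RNA of 4 fetuses whose Japanese Black dams received 60% of their nutritional requirement during gestation. The high-nutrition (HN) sample was that of 4 fetuses whose dams received 120%. All fetuses were taken at 8.5 months of gestation (day 260 ± 8.3) and were sired by the same bull with male-sorted semen, and those of the lowest body weight in the LN group and of the highest in the HN group were pooled. The diet and the selection by body weight cannot be told apart, and no group was fed at the requirement itself. Each pool had a single one-color Agilent array, so differences have no replicate check and no p-value, and how far single fetuses differ is unknown. In bulk muscle RNA, a lower level of a transcript in each cell and a lower number of the cells that hold it cannot be told apart.

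Initiation of translation brings the small ribosomal subunit, the initiator methionyl-tRNA and the start codon of the mRNA together. The factors act in complexes. eIF2 carries the initiator tRNA as a complex with GTP, and eIF2B exchanges the GDP on eIF2 for GTP. eIF3 is the large scaffold on the small subunit, eIF1 and eIF1A hold the subunit open while it scans, and the eIF4 factors bind the cap and unwind the leader of the mRNA. eIF5 triggers GTP hydrolysis on eIF2, and eIF5B joins the subunits. When amino acids are short or proteins misfold, kinases phosphorylate the alpha subunit of eIF2, which then blocks eIF2B and lowers bulk protein synthesis. In skeletal muscle, supply of amino acids and insulin act on initiation through eIF2B and the eIF4E-binding proteins.

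Values are log2 spot signals after quantile normalization, and a difference is log2 LN/HN, with values above 0 higher in the LN pool. All 100 member probes with a value were well above background on both arrays, with log2 signals from 3.58 to 16.59, and none carried an outlier flag. Of all spots, 74.5% of HN and 70.9% of LN were well above background by the array software, and no spot was saturated. The SD of log2 LN/HN between replicate spots of a probe was 0.085, from 42 probes printed several times. The error of the software for the log2 ratio of a member probe, which assumes an error of the signal on each array, was 0.20 at the median and at most 0.31. A gene was called higher or lower in the LN pool when its log2 LN/HN passed 0.32 in size, which is a signal 25% higher in one pool than in the other and is the fold that the study used for its gene lists. This is called the threshold here. Of 9 skeletal muscle markers 8 had a value, all well above background on both arrays, among them *ACTA1*, the actin of skeletal muscle, with log2 signals of 17.57 in HN and 17.53 in LN.

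The initiation factors differed little between the pools. Of the 38 genes, 2 were higher in the LN pool past the threshold, *EIF5A2* and *EIF2D*, and 0 were lower. This is 5.26% of the members higher, against 8.85% of all genes higher and 9.11% lower. Among the 9654 genes with a symbol and no dim probe on either array, 6.96% were higher and 6.85% lower. A share of 2 genes in 38 is near this background. The median log2 LN/HN of the members was 0.03, with 21 genes above 0 and 17 below, and the median of all genes was -0.003. The difference was smaller than the SD between spots in 22 of the 38 genes (57.9%), against 37.1% of the genes with a symbol measured on both arrays. These shares were not matched on signal, and dim probes scatter more. No member passed 2-fold, which 0.711% of all genes did upwards and 0.286% downwards (0.425% and 0.176% of those with a symbol and no dim probe).

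**Figure D1:**
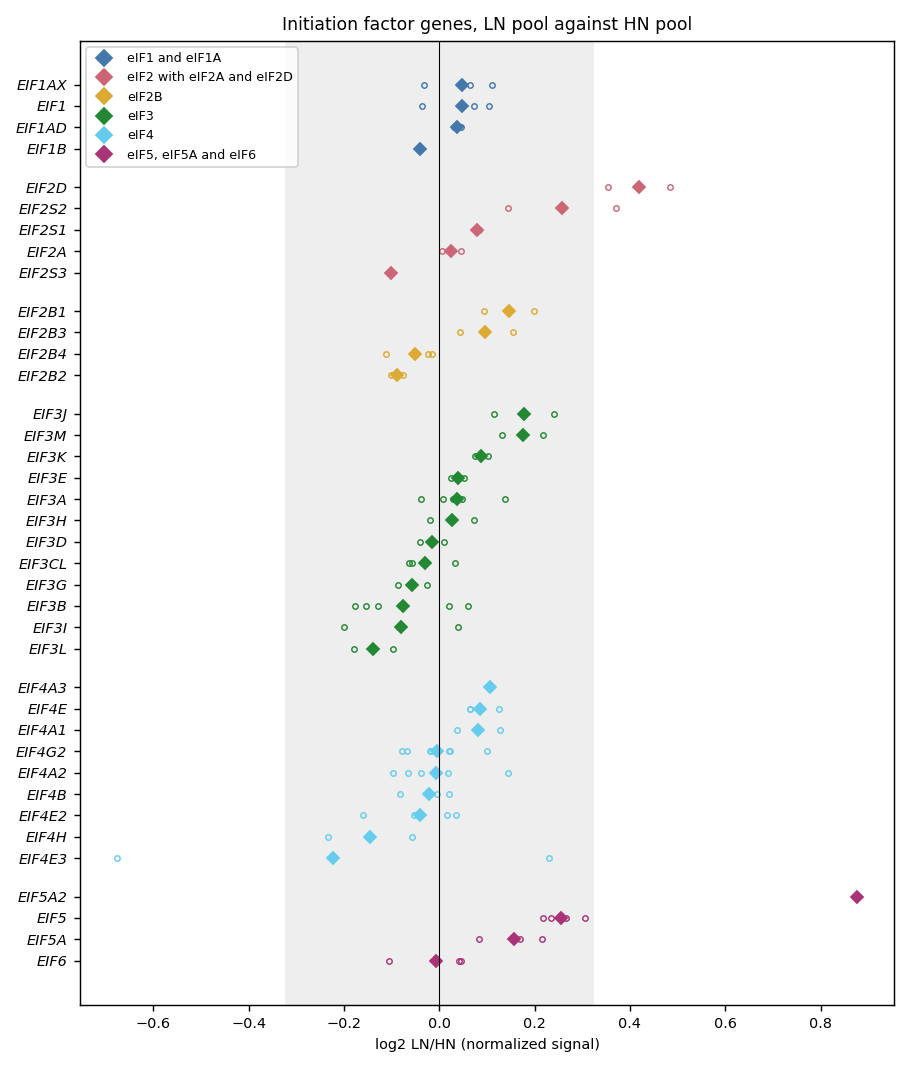
Log2 LN/HN of the 38 initiation factor genes (diamonds, mean over probes) and of their probes (open circles), grouped by factor complex, with the range within the threshold shaded. *EIF5A2* (0.88) and *EIF2D* (0.42) lie outside the shaded range, and the 12 eIF3 subunits lie between -0.14 and 0.18.

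**Figure D2:**
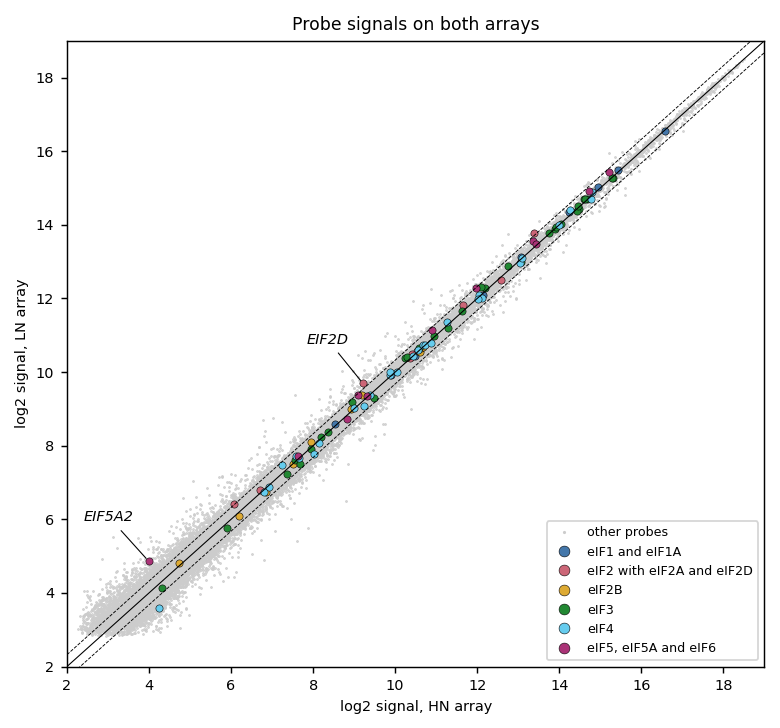
Log2 signal of each probe on the HN array (horizontal) and on the LN array (vertical), for probes measured on both arrays, with the 100 initiation factor probes colored by complex and all others in gray. The solid line marks equal signals and the dashed lines the threshold, and the scatter of all probes widens toward dim signals, where the probe of *EIF5A2* lies.

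In the group of eIF1 and eIF1A, set by symbol, 4 of 5 genes had a value and none passed the threshold, with a median log2 LN/HN of 0.04. *EIF1*, which guards the choice of the start codon, had log2 signals of 15.65 in HN and 15.70 in LN (log2 LN/HN 0.05, with 3 probes from -0.04 to 0.11). *EIF1AX*, the X-linked gene of eIF1A, had 13.15 and 13.20 (0.05, 3 probes from -0.03 to 0.11). *EIF1B*, a close copy of *EIF1*, had 10.48 and 10.44 from 1 probe (-0.04). *EIF1AD*, which is named for its eIF1A domain and is counted here by its symbol only, had 9.22 and 9.25 (0.04, 2 probes). Each of these differences was under the SD between spots, and the probes of *EIF1* and *EIF1AX* lay on both sides of 0.

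The 3 subunits of eIF2 did not differ alike. *EIF2S1*, the alpha subunit that the stress kinases phosphorylate, had log2 signals of 8.56 in HN and 8.64 in LN, with 0.08 in each of its 2 probes. *EIF2S2*, the beta subunit, which binds eIF5 and eIF2B, had 12.53 and 12.79 (0.26). Its probes gave 0.37 (13.39 and 13.76) and 0.14 (11.67 and 11.81), so 1 of them was past the threshold while the gene was not. At a mean log2 signal of 13 to 14, 1.76% of all probes measured on both arrays were higher past the threshold and 3.39% lower. *EIF2S3*, the GTP-binding gamma subunit, had 12.59 and 12.49 from 1 probe (-0.10). The differences of the alpha and gamma subunits were smaller than the software's error for a probe, and that of the beta subunit was slightly larger.

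*EIF2D* was higher in the LN pool by 1.34-fold (log2 LN/HN 0.42), but not past the threshold after the normexp background correction (0.27). It encodes a factor that can bring tRNA to the small subunit without GTP and acts in recycling and reinitiation. The brighter of its 2 probes had log2 signals of 9.21 in HN and 9.69 in LN, which are intensities of 583 and 841 as deposited. The other had 6.07 and 6.42, intensities of 67.1 and 85.3. Both probes were thus higher in the LN pool past the threshold, with log2 LN/HN values of 0.48 and 0.35 and a software error of 0.20 and 0.21. Among all probes measured on both arrays in the same range of signal, 3.16% were higher past the threshold and 4.63% lower at a mean log2 signal of 9 to 10, against 7.19% and 7.85% at 6 to 7. *EIF2D* ranked 1140 among the 19554 genes from the highest log2 LN/HN. *EIF2A*, another factor that can bind initiator tRNA, had log2 signals of 10.46 and 10.48 (0.03, 2 probes).

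*DENR* and *MCTS1* encode the 2 proteins of a heterodimer that resembles eIF2D and acts in the same steps. They stood in the list of termination, recycling and reinitiation genes. *DENR* was higher in the LN pool by 1.27-fold, with log2 signals of 8.92 in HN and 9.26 in LN from its 1 probe (log2 LN/HN 0.34, or 0.27 after the normexp background correction). *MCTS1* had 10.50 and 10.52 (0.02, with probes of -0.02 and 0.06). Of the 8 genes in that list, *DENR* alone passed the threshold, 0 were lower, and the median was 0.04, and 1 gene of 8 is near the 8.85% of all genes that were higher.

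For eIF2B, 4 of the 5 subunits had a value and none passed the threshold, with a median log2 LN/HN of 0.02. The subunits of the regulatory part, which senses the phosphorylated eIF2, lay on both sides of 0. *EIF2B1* had log2 signals of 6.95 in HN and 7.10 in LN (0.15, probes of 0.20 and 0.09), *EIF2B2* had 8.40 and 8.31 (-0.09, probes of -0.08 and -0.10), and *EIF2B4* had 8.35 and 8.30 (-0.05, probes from -0.11 to -0.02). *EIF2B3*, of the part that exchanges the nucleotide, had 9.16 and 9.26 (0.10, probes from 0.04 to 0.15). In each of the 4 genes all probes had the same sign, although the differences did not exceed the software's error. The catalytic subunit of eIF2B, encoded by *EIF2B5*, was not among the genes with a probe.

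The eIF3 complex had a value for 12 of its 13 genes. Its log2 LN/HN values ran from -0.14 to 0.18 with a median of 0.005, 6 genes above 0 and 6 below, and none passed the threshold. In the scaffold of PCI and MPN domain subunits, *EIF3A* had log2 signals of 9.80 in HN and 9.84 in LN (0.04, with 5 probes from -0.04 to 0.14). The gene listed as *EIF3CL*, for which the table gives EIF3C as a synonym, had 12.16 and 12.13 (-0.03, 3 probes).

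*EIF3E* (14.19 in HN and 14.23 in LN, log2 LN/HN 0.04), *EIF3H* (13.74 and 13.77, 0.03) and *EIF3K* (14.61 and 14.70, 0.09) were near 0 as well. *EIF3M* had 12.43 and 12.60 (0.17), and *EIF3L*, a peripheral subunit, had 10.38 and 10.24 (-0.14), the lowest value of the complex. Of the subunits that bind each other outside this scaffold, *EIF3B* had -0.08, *EIF3G* had -0.06 and *EIF3I* had -0.08. These values were under the SD between spots, and the probes of *EIF3B* (-0.18 to 0.06) and *EIF3I* (-0.20 and 0.04) disagreed in sign. *EIF3D*, which can bind the cap of some mRNAs, had 12.53 and 12.51 (-0.02). *EIF3J*, a loosely bound subunit, had 9.61 and 9.79 (0.18, probes of 0.12 and 0.24), the highest value of the complex.

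Of the eIF4 factors, 9 of 13 genes had a value and none passed the threshold, with a median log2 LN/HN of -0.008. *EIF4E*, which binds the cap, had log2 signals of 10.14 in HN and 10.22 in LN (0.08), and its 3 probes were all above 0, from 0.06 to 0.13. The related cap-binding proteins gave -0.04 for *EIF4E2*, with 4 probes from -0.16 to 0.03, and -0.22 for *EIF4E3*. The 2 probes of *EIF4E3* went in opposite directions. The brighter had 7.24 in HN and 7.47 in LN (0.23), and the dimmer had 4.25 and 3.58 (-0.68, with a software error of 0.31). At a mean log2 signal of 3 to 4, 17.7% of all probes measured on both arrays were lower past the threshold and 23.6% higher, against 8.31% and 8.59% over all signals. The value of *EIF4E3* below 0 thus comes from the dim probe alone.

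The helicases of the eIF4 group, *EIF4A1* (9.82 and 9.90, log2 LN/HN 0.08) and *EIF4A2* (13.04 and 13.03, -0.01, with 5 probes from -0.10 to 0.14), did not pass the threshold. Their relative *EIF4A3*, which belongs to the exon junction complex, had 11.27 and 11.37 from 1 probe (0.11). The cofactors of the helicase gave -0.02 for *EIF4B* (12.18 and 12.16, 3 probes) and -0.15 for *EIF4H* (7.41 and 7.26, probes of -0.23 and -0.06). *EIF4G2*, which encodes a relative of the scaffold eIF4G that lacks the part binding eIF4E, was measured by 7 probes. Its log2 signals were 10.49 and 10.49, and its probes ran from -0.08 to 0.10 with a mean of -0.005. The scaffold genes proper, *EIF4G1* and *EIF4G3*, had no matched probe.

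In the group of eIF5, eIF5A, eIF5B and eIF6, 4 of 5 genes had a value, without *EIF5B*, and the median log2 LN/HN of 0.21 was the highest among the complexes. This group was set by symbol rather than as 1 complex. Its 4 values ran from -0.007 to 0.88, the highest from the single dim probe of *EIF5A2*. *EIF5*, the GTPase-activating factor of eIF2, had log2 signals of 11.33 in HN and 11.58 in LN (0.26, 1.19-fold). Its 4 probes were all above 0 and close to each other, at 0.22, 0.23, 0.27 and 0.31, so the difference was short of the threshold in every probe and larger than the SD between spots. *EIF5A*, which carries hypusine and helps the ribosome through elongation and termination, had 12.53 and 12.68 (0.16, with probes of 0.08, 0.17 and 0.22). *EIF6*, which keeps free large subunits from joining, had 10.52 and 10.51 (-0.007, probes from -0.11 to 0.04).

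*EIF5A2*, the second gene of eIF5A, had the largest difference of all members. Its 1 probe had log2 signals of 3.99 in HN and 4.87 in LN, which are intensities of 16.5 and 28.6 as deposited. The log2 LN/HN was 0.88, a 1.84-fold difference with a software error of 0.26, and the gene ranked 224 among the 19554 genes. After the normexp background correction it was 0.25, short of the threshold. The probe was well above background on both arrays but dim. At a mean log2 signal of 4 to 5, 15.4% of all probes measured on both arrays were higher past the threshold and 15.4% lower. Its bright copy *EIF5A* did not pass the threshold.

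Probe by probe, 62 of the 100 member probes were above 0 and 38 below. Past the threshold, 4 were higher (both of *EIF2D*, 1 of *EIF2S2* and that of *EIF5A2*) and 1 was lower, the dim probe of *EIF4E3*, against 8.59% higher and 8.31% lower of all probes measured on both arrays. Among the 34 members with at least 2 such probes, all probes had the same sign in 20 (58.8%), near the 59.1% found over all genes with several measured probes. The median SD between the probes of a member was 0.063, and that of all genes was 0.098, again without matching on signal. Probes of close copies, such as *EIF1* with *EIF1B*, *EIF4A1* with *EIF4A2*, *EIF1AX* with *EIF1AY* and *EIF5A* with *EIF5A2*, may bind both transcripts, and the part of this was not tested.

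The genes that act on these factors were taken from lists of related translation genes. For the kinases of eIF2 alpha and the phosphatase that reverses them, 7 of 9 genes had a value, with 1 higher, 1 lower and a median log2 LN/HN of 0.07, and such counts in 7 genes are near the 8.85% and 9.11% of all genes. *PPP1R15A*, also called GADD34, which directs the phosphatase to eIF2 alpha, was lower in the LN pool. Its probe measured on both arrays had log2 signals of 7.63 in HN and 7.27 in LN (-0.36). The other had 3.75 in the HN pool and was not well above background on the LN array. Against the lowest signal well above background there, this gives a bound of 1.91-fold lower, with a software error of 0.42. At a mean log2 signal of 3 to 4, 17.7% of all probes measured on both arrays were lower past the threshold and 23.6% higher. *EIF2AK1*, the heme-regulated kinase, had a log2 LN/HN of 0.39, past the threshold, but its probes gave 0.003 from the bright one (9.59 and 9.60) and 0.77 from the dim one (2.89 and 3.66). It was past the threshold in 8 of the 12 alternative ways of processing, and *PPP1R15A* in 11, with -0.15 after the normexp background correction. *EIF2AK2* had 0.05, and *EIF2AK3*, the kinase of the endoplasmic reticulum also called PERK, had 0.15. *EIF2AK4* (GCN2, the kinase that senses uncharged tRNA) and *PPP1R15B* had no value.

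Of the eIF4E-binding proteins and other regulators of the eIF4 factors, 9 of 13 genes had a value and none passed the threshold (median 0.08). *EIF4EBP1*, the repressor of *EIF4E* that mTORC1 phosphorylates, had log2 signals of 13.38 in HN and 13.47 in LN (log2 LN/HN 0.09). *PDCD4*, which inhibits the helicase eIF4A, came nearest to the threshold with 11.87 and 12.17 (0.30, probes of 0.28 and 0.32). Of the mTORC1 and S6 kinase genes, 6 of 8 had a value, and of the elongation factors all 8, with none past the threshold and medians of -0.003 and -0.05. The lowest elongation factor was *EEF1A2*, the muscle form of eEF1A, with -0.29. The mitochondrial initiation factors *MTIF2* and *MTIF3* both had a log2 LN/HN near 0 (0.009 and 0.003).

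Among 81 cytosolic ribosomal proteins with a value, 0 were higher and 1 was lower past the threshold, against 8.85% and 9.11% of all genes. The lower gene was *RPL10L* (-0.56 from 1 probe, or -0.23 after the normexp background correction), and the median was 0.05. Most of these genes had log2 signals above 13. At a mean log2 signal of 13 to 14, 1.76% of all probes measured on both arrays were higher past the threshold and 3.39% lower. The cytosolic aminoacyl-tRNA synthetases, a list added after the data were seen, are given beside these lists. In this list 8 of 19 genes with a value were higher and 0 were lower, against 8.85% and 9.11% of all genes, and the median was 0.18, with *GARS1* (0.81) and *SARS1* (0.58) at the top. Of the 8 genes, *GARS1*, *SARS1*, *TARS1* and *IARS1* were past the threshold in all 12 alternative ways of processing, *YARS1* in 11, *CARS1* in 10, *MARS1* in 8 and *AARS1* in 7. These counts and medians describe 2 arrays, the lists were not matched on signal, and the difference between them was not tested. For pathway genes higher in LN on these arrays, the study's qRT-PCR found no significant difference for most of those it examined.

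**Figure D3:**
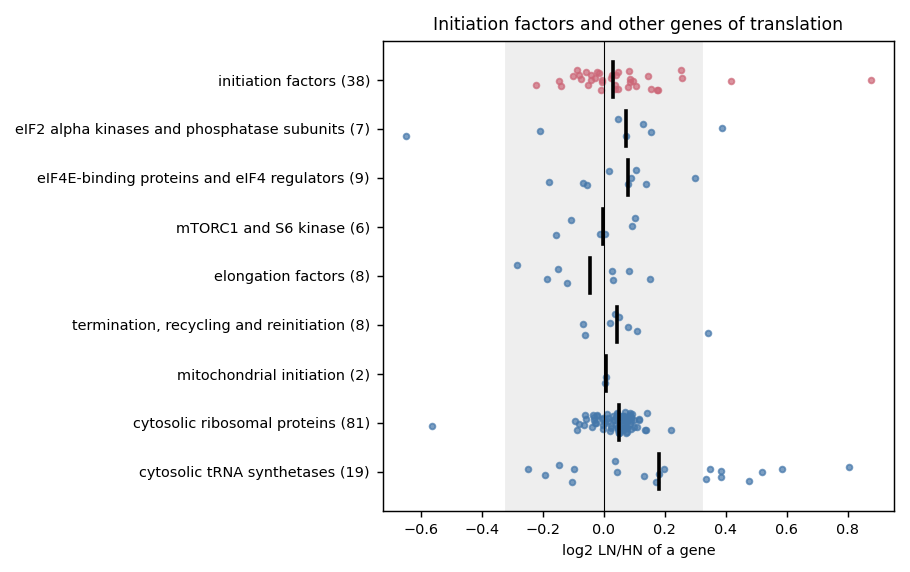
Log2 LN/HN of each gene (points) in the initiation factors and in 8 lists of other translation genes, with the number of genes with a value in parentheses, the median as a black bar and the range within the threshold shaded. Outside the shaded range lie 2 of 38 initiation factors, 8 of 19 tRNA synthetases, *EIF2AK1* (0.39), *PPP1R15A* (-0.65), *DENR* (0.34) and the ribosomal protein gene *RPL10L* (-0.56). The value of *PPP1R15A* includes 1 probe that was dim in LN and gives only a bound, and its probe measured on both arrays gave -0.36.

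Markers of neutrophils, fibroblasts and macrophages also passed the threshold, and 0 of those of endothelial cells, erythroid cells, adipocytes and nerve did, against 8.85% of all genes higher and 9.11% lower. Of 8 neutrophil markers, 7 were higher past the threshold in the LN pool (median log2 LN/HN 0.83), and their summed signal was 1689 in HN and 2961 in LN, with *MPO* not well above background in HN. Of 6 fibroblast markers, 4 were higher (median 0.34, summed signal 20771 and 25395). The medians were below 0 for the markers of endothelial cells (-0.19, summed signal 2365 in HN and 1959 in LN), macrophages (-0.18, 3516 and 2704, with 2 of 6 lower), erythroid cells (-0.11, over 6 genes with a value) and skeletal muscle (-0.14, 437081 and 402945). Of the 8 skeletal muscle genes with a value, 1 was higher past the threshold, *MYH8*, the perinatal myosin heavy chain (0.35, probes from 0.04 to 0.61), and 0 were lower. The erythroid marker *SLC4A1* was not well above background in either pool. The medians were 0.04 for 2 adipocyte markers (summed signal 20.5 and 20.9) and 0.13 for 3 nerve markers (1640 and 1697). The summed signals average all probes of a gene, also those dim on both arrays, which the medians leave out. Over the probes behind the adipocyte median, *PLIN1* had log2 signals of 5.14 in HN and 5.00 in LN, and *CIDEC* had 7.09 and 7.31. The part of these cells in the values of *EIF2D*, *EIF5A2*, *EIF5* and *EIF2S2* was not tested.

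The members were then set against the other ways of processing the arrays. *EIF2D* and *EIF5A2* were the 2 members past the threshold in 10 of the 12 alternatives. With the brightest probe of each gene there were 3, because *EIF2S2* reached 0.37. After the normexp background correction with an offset of 50 there were 0, near the shares of all genes under that processing, 1.59% higher and 1.92% lower. *EIF5* (0.25) and *EIF2S2* (0.27) were within 0.01 of their values above. No member was lower past the threshold in any of the 12 alternatives. With the 75th percentile of each array subtracted, 6.00% of all genes were higher and 13.6% lower, while 2 members were higher and 0 lower. The value of *EIF4E3* changed its sign with the brightest probe (0.23) and after the normexp correction (0.02).

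**Figure D4:**
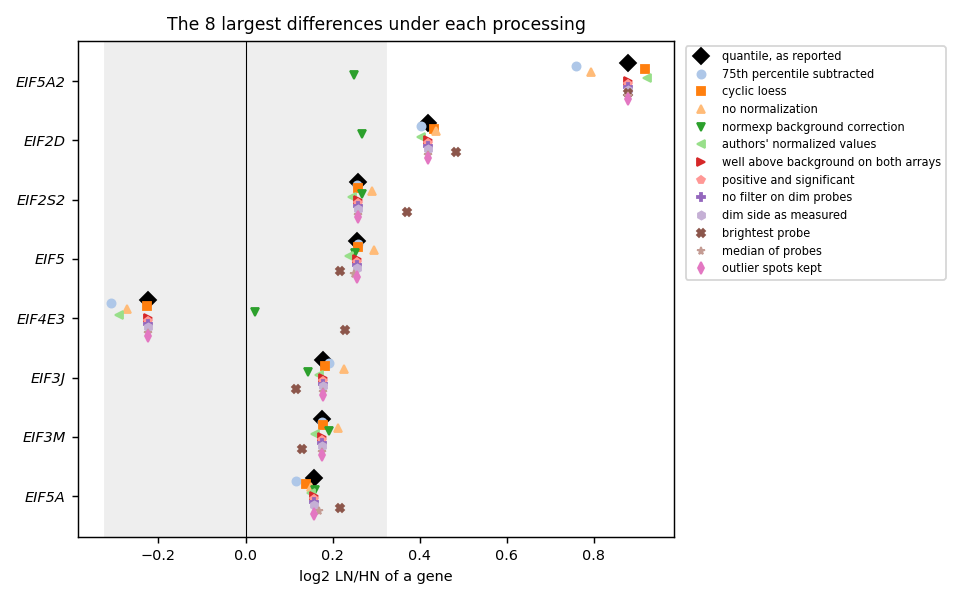
Log2 LN/HN of the 8 initiation factor genes with the largest differences, as reported (black diamonds) and under 12 other ways of processing, with the range within the threshold shaded. The value of *EIF5A2* ranges from 0.25 to 0.92 and that of *EIF2D* from 0.27 to 0.48, whereas the values of *EIF5* lie between 0.22 and 0.29.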

How the data were processed

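Total RNA of the LT muscle, pooled from 4 fetuses per group, was measured on Agilent Bovine (v2) arrays, 1 for each pool. The authors' spot files come from Feature Extraction 11.0.1.1 and hold, as deposited, intensities corrected for background but not scaled between arrays, and other columns with flags of 0 or 1. The authors also deposited quantile-normalized values for 30027 probes, among them 100 of the initiation factors, which were taken as log2 from their range because no scale is stated (median 8.03 on both arrays).

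Log2 intensities of the 43803 non-control spots were quantile-normalized (limma 3.58.1, R 4.3.3), the method the study names. The 13 spots with an outlier flag were left out, and replicate spots were averaged. Probes well above background on at least 1 array were kept, except in the summed signals of the cell type markers, which used all probes. Where a probe was dim on the other array, the lowest signal that was well above background there (log2 2.27 for HN, 2.82 for LN) stood in, unless its own value was higher. A gene's value is the mean over its probes. Symbols came from the accessions and a gene table of assembly ARS-UCD2.0, which named 61.3% of the probes. Since the array was designed on another assembly, coordinates are not given. The steps (Python 3.11.15, numpy 2.4.6, pandas 2.3.3, matplotlib 3.10.9) were tested on simulated data. The members, the gene lists and the threshold were chosen with earlier results of these data known. All members with a value are named, as are the genes of the other translation lists past the threshold, while the cell type markers are mostly given as counts. The tRNA synthetases are a list added after the data were seen. *MCTS1*, *PDCD4*, *EEF1A2* and the other list genes within the threshold were named after their values were seen. The value of 1 erythroid marker and the sum over that list are not reported here. Each result was recomputed under 12 alternatives. For the normexp alternative the median spot and background signals were used, because the files hold no mean spot signal. The number of arrays limits the precision.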

Additional observations from a re-analysis of the deposited data

How the results depend on the processing

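Of the results on the initiation factors, the medians of all members and of the 6 complexes moved by less than the median SD between probes of a gene (0.098) under each of the 12 alternatives. The count of members lower past the threshold was 0 throughout. The count of members higher past the threshold was 2 and became 0 after the normexp background correction. That alternative also uses other spot signals and sets no limit for dim probes, and the cause was not tested. Single genes moved by more than 0.098 with the brightest probe (4 genes), after the normexp correction (3 genes) and with the 75th percentile of each array subtracted (1 gene, *EIF5A2*, to 0.76). The sign changed under at least 1 alternative for *EIF1*, *EIF1B*, *EIF3B*, *EIF3H*, *EIF3I*, *EIF4A2*, *EIF4B*, *EIF4E2*, *EIF4E3*, *EIF4G2* and *EIF6*. *EIF2AK1* had a log2 LN/HN of 0.003 with its brightest probe and 0.02 after the normexp correction, and *PPP1R15A* ranged from -0.75 to -0.15, with -0.36 when only probes measured on both arrays were used. *DENR* ranged from 0.27 to 0.39. The alternatives for these 3 genes and for the other lists were chosen after seeing the data. The median of all genes moved to -0.042 with the 75th percentile subtracted, and that of the ribosomal proteins then to -0.0004. No paired analysis was possible because each group has 1 array, and for the same reason no array could be left out.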
